A study of Homo sapiens with 6 samples.

Results

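The siALDOA experiment in the line named 90 comprised 3 of the 6 libraries of the series, chosen by the line and treatment in their titles. Both lines of the series are of pancreatic ductal adenocarcinoma (PDAC). In the 90 line, 1 library carried the label NC and 2 carried siALDOA with the numbers 1 and 2, called siALDOA 1 and siALDOA 2 here. The other 3 libraries had the same layout in PANC-1, an established human PDAC line. All were made from cultured cells harvested in Trizol, by a poly(A) selection protocol, and sequenced on an Illumina HiSeq. The prefix si was taken as small interfering RNA (siRNA), and the NC library, the one without siALDOA in its title, was used as the control. Neither siRNA sequences, doses, times after treatment nor the meaning of 90 and NC are given in the labels or files. It is also not given whether siALDOA 1 and 2 are different siRNAs or separate cultures, so the spread between them may be technical. Of the 41768 genes with a symbol, the 12154 whose mean FPKM in these 3 libraries reached 1 were compared, of which 10772 are of type mRNA. FPKM is fragments per kilobase of gene per mega of fragments, as deposited.

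ALDOA encodes aldolase A, the glycolytic enzyme that cleaves fructose 1,6-bisphosphate into the triose phosphates, and PDAC cells are known for a high use of glucose. Aldolase C is encoded by a separate gene. Type I and type III interferons signal through JAK kinases to a complex that holds STAT2 and IRF9 and binds a GAAA-repeat element in promoters of antiviral genes. The products of such genes sense viral RNA, degrade it, block translation or are conjugated to other proteins, and many tumour lines express them without added interferon.

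Depth recovered from the steps between low values was 17.7 M fragments for NC, 19.4 M for siALDOA 1 and 18.98 M for siALDOA 2. A gene of 1 kb with 3 fragments then stands at 0.169, 0.154 and 0.158 FPKM. All 11 epithelial markers of PDAC were tested, led by KRT19 at 2042 FPKM in NC against 1720 and 2427 in siALDOA 1 and 2. Of the 8 fibroblast markers only COL1A1 passed the filter, at 1.20, 1.38 and 1.68 FPKM, and THY1, COL3A1 and FAP were listed at 0 in the 3 libraries. Of the 9 leukocyte markers only CD68 passed, at 32.95, 31.3 and 51.2 FPKM, with PTPRC listed at 0, 0.00945 and 0. Of the 5 endothelial markers only CDH5 passed, at 3.24, 3.28 and 3.004 FPKM, and none of the 7 acinar and islet markers did.

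The siALDOA 1 library stood apart from both others along GC content. A difference is given throughout as log2(FPKM + 1) in a siALDOA library minus that in NC, and a fold change is on the same scale, which understates the change of low genes. Genes were split into 8 equal groups by the GC content of their longest transcript. In the lowest group, from 30.2% to 39.7% GC, the median difference was 1.48 in siALDOA 1 and 0.12 in siALDOA 2. In the highest group, from 61.1% to 86.4%, it was -0.28 and 0.11. Over all genes tested the medians were -0.03 and 0.00. Between the siALDOA libraries themselves, 2665 genes differed at least 2-fold. GC content is therefore given below for some sets and single genes, while most genes are given as FPKM alone. The part of the GC trend in each result was not tested, except where values without it are stated.

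**Figure D1:**
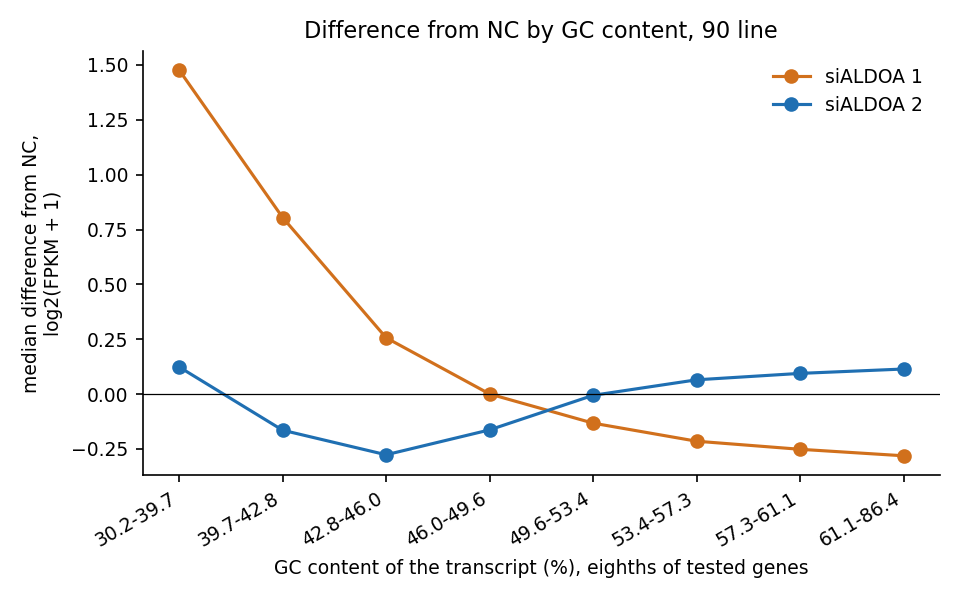
Median difference from NC, in log2(FPKM + 1), for 8 equal groups of tested genes ordered by GC content (x axis, percent), with siALDOA 1 in orange and siALDOA 2 in blue. The siALDOA 1 line runs from 1.48 at the lowest to -0.28 at the highest GC content, and the siALDOA 2 line stays between -0.28 and 0.12.

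The first comparison asked whether the siRNA target itself was lower. ALDOA, at chr16:30064164-30070457 on the plus strand (GRCh38, GENCODE v29), stood at 726 FPKM in NC against 262 in siALDOA 1 and 318 in siALDOA 2. These are 36.1% and 43.8% of NC, a mean of 39.9% ± 5.4 (SD, n = 2), and both siALDOA libraries lie below the control. The differences were -1.47 and -1.19. ALDOA had the lowest shared difference of the 10772 genes of type mRNA and was the only mRNA at least 2-fold below NC in both libraries. In limma it had a log2 change of -1.33 (SE 0.246, unadjusted p = 0.00526, adjusted p = 1). With the control label moved over the 3 libraries the exact permutation p was 0.333 (two-sided), the smallest that 3 libraries allow. In bulk RNA, fewer cells with the transcript and less transcript per cell cannot be told apart.

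ALDOC, which encodes aldolase C, went from 35.3 FPKM in NC to 19.95 and 29.5 in siALDOA 1 and 2, below NC in both. Of the 14 other glycolytic genes tested, none was above NC in both libraries and 4 were below NC in both, where 20.1% and 22.6% of all genes tested lay. The 4 are near that background and are given as values only. The group's median difference was -0.35 in siALDOA 1 and 0.08 in siALDOA 2. GAPDH, which acts on the triose phosphate that aldolase yields, was at 5058, 3792 and 5510 FPKM in NC, siALDOA 1 and siALDOA 2. TPI1, which interconverts both triose phosphates, was at 853, 665 and 917 FPKM. All 14 genes were lower in siALDOA 1 than in NC and 10 were higher in siALDOA 2. The 14 genes had a median GC content of 53.02%, against 49.45% over tested mRNA genes, with LDHA and PGK1 below the latter. All 5115 mRNA genes at or above 49.45% GC had median differences of -0.23 in siALDOA 1 and 0.07 in siALDOA 2. In 4468 of these the siALDOA 2 difference was the larger. The part of this general pattern in the glycolytic values was not tested. The 4 genes below NC in both were LDHA, PGK1, PFKM and HK2. LDHA, which makes lactate from pyruvate, was at 373, 314 and 331 FPKM. HK2, which phosphorylates glucose, was at 12.6, 11.3 and 8.59 FPKM. Among 9 tested genes of glucose entry and fructose bisphosphate control, 1 was above NC in both libraries, PFKFB4, at 5.03, 5.87 and 8.07 FPKM. PFKFB3, its relative that also makes fructose 2,6-bisphosphate, was at 24.6, 18.4 and 21.8 FPKM.

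The second comparison asked which differences both siALDOA libraries share. Each siALDOA library is set against the same single NC library, so an unusual value in NC moves both differences alike. In siALDOA 1, 1974 genes were at least 2-fold above NC (16.2% of those tested) and 38 at least 2-fold below (0.313%). In siALDOA 2 the counts were 122 above (1.0%) and 105 below (0.864%). Both libraries were at least 2-fold above NC for 93 genes (0.765%) and at least 2-fold below for 14 (0.115%). At 1.5-fold the counts were 413 above (3.4%) and 44 below (0.362%). With no threshold on size, both lay above NC for 2446 genes (20.1%) and both below for 2741 (22.6%). Those shares are the background for the list counts below, but they vary with GC content. At or above 49.45% GC, the median of tested mRNA genes, 460 of 5115 mRNA genes lay above NC in both and 1435 below. Under it the counts were 1501 of 5113 above and 769 below. Of the lists below, only the interferon-induced ones are also set beside mRNA genes of their own GC range.

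**Figure D2:**
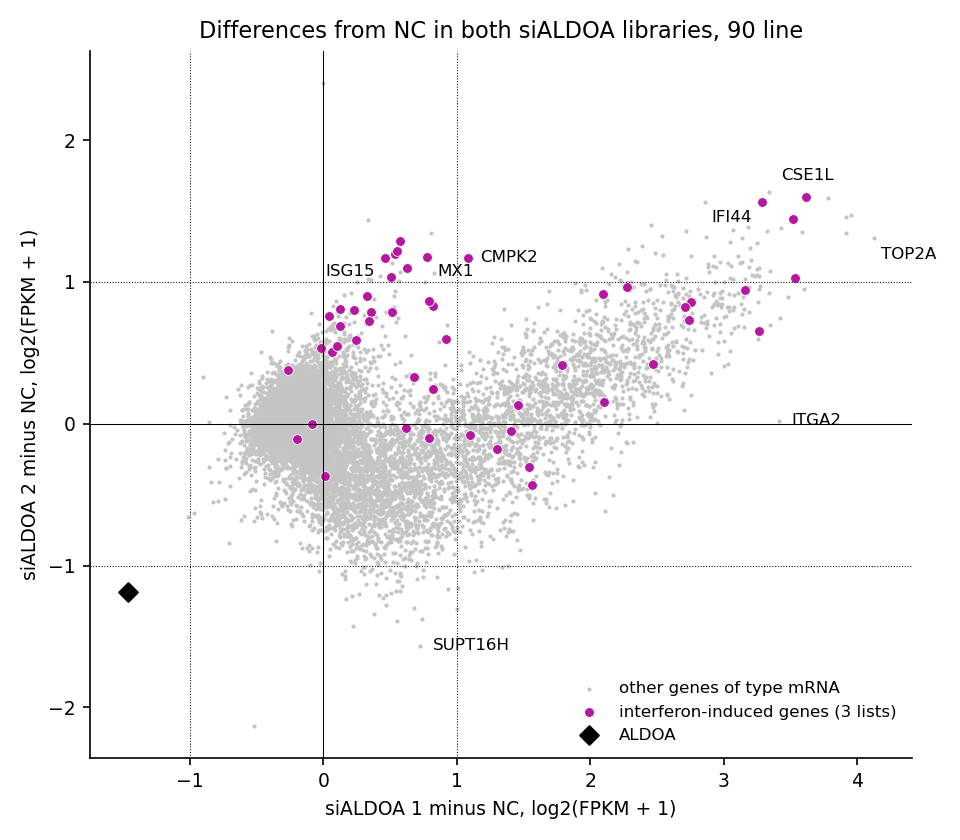
Difference from NC in siALDOA 1 (x axis) and siALDOA 2 (y axis), both in log2(FPKM + 1), for genes of type mRNA, with dotted lines at 2-fold, the 51 interferon-induced genes in magenta and ALDOA as a black diamond. ALDOA is alone in the lower left beyond the 2-fold lines, and the interferon-induced genes lie along 2 branches, one at higher siALDOA 2 values near ISG15 and MX1 and one that runs with the other genes toward CSE1L.

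Of the 93 genes above NC in both, 70 were of type mRNA. Their median difference was 3.04 in siALDOA 1 and 1.14 in siALDOA 2, and for 69 of the 70 the siALDOA 1 difference was the larger. Their median GC content was 38.6% (68 genes with a value), against 49.45% over all tested genes of type mRNA, and 54 of them fell in the lowest GC group. In that group siALDOA 1 was at least 2-fold above NC for 958 of 1381 genes of any type. All 55 genes there that were at least 2-fold above NC in siALDOA 2 were so in siALDOA 1 too. Agreement of the libraries thus adds little to siALDOA 2 alone in that group. Of the 70 genes, 13 were under 1 FPKM in NC and passed the filter through the siALDOA libraries. At the 2-fold line, TBK1 (0.605, 11.3 and 2.21 FPKM in NC, siALDOA 1 and siALDOA 2) lay just inside and DLGAP5 (2.15, 24.3 and 5.30 FPKM) just outside.

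The 15 mRNA genes with the largest smaller-of-both difference were led by CSE1L. CSE1L, the export receptor that recycles importin alpha, stood at 10.75 FPKM in NC against 118 in siALDOA 1 and 35.4 in siALDOA 2. SAMD9, an interferon-induced restriction factor, was at 1.06, 24.3 and 5.23 FPKM. KTN1, a kinesin-binding protein of the endoplasmic reticulum, was at 3.62, 62.6 and 12.95 FPKM. In each case siALDOA 1 was highest, siALDOA 2 lay between and NC was lowest. IFI44, an interferon-induced gene, was at 8.77, 94.5 and 27.9 FPKM. DDX60, an interferon-induced helicase, was at 0.491, 22.1 and 3.14 FPKM. IFI16, a sensor of DNA, was at 5.15, 69.5 and 15.7 FPKM. These 3 antiviral genes show the same order of libraries as CSE1L.

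SMC4, a condensin subunit that compacts mitotic chromosomes, was at 2.39, 50.01 and 8.32 FPKM. ANLN, the cleavage furrow protein anillin, was at 2.92, 46.1 and 8.98 FPKM. RECQL, a DNA helicase, was at 1.19, 22.6 and 4.70 FPKM. SMC2 and SMC3, further chromosome-structure genes, and TOP2A and TTK were also among the 70. ANXA1, a calcium-dependent membrane-binding protein, was at 30.9, 173 and 83.0 FPKM. HSP90AA1, the stress-inducible cytosolic HSP90, was at 53.96, 498 and 143 FPKM and had the highest GC content of these 15 genes, 45.2%. It has close pseudogenes, so its level is uncertain where the counting split reads. BLZF1, RND3, ZC3H15 and SLK complete the 15 named genes, with siALDOA 2 at 5.89, 7.94, 14.8 and 2.77 FPKM against 1.34, 2.47, 5.14 and 0.468 in NC. None of the 15 passed limma.

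**Figure D3:**
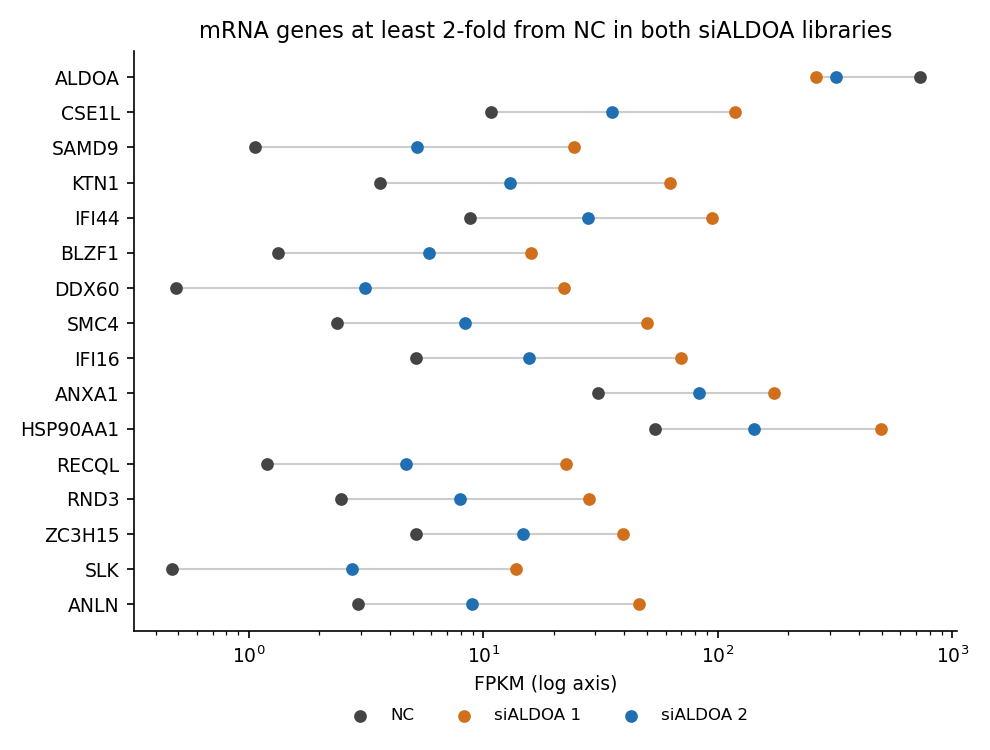
FPKM (log axis) of ALDOA and of the 15 mRNA genes with the largest shared positive difference, with NC in grey, siALDOA 1 in orange and siALDOA 2 in blue. ALDOA is highest in NC at 726 FPKM, and the 15 others are lowest in NC and highest in siALDOA 1.

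With the trend on GC content removed from each difference, 84 genes were at least 2-fold above NC in both libraries, and 64 of these were among the 93. CSE1L then had differences of 2.20 and 1.65, HSP90AA1 of 2.99 and 1.64, and IFI44 of 2.13 and 1.57. The mRNA genes among the 84 were still mostly low in GC content. Only CMPK2 (49.8%) and LHB (64.3%) lay above the median of 49.45% over tested mRNA genes. On the values with the trend left in, few genes at or above the median GC content were higher in both. The siALDOA 1 trend is below 0 in that range. Of 5115 such mRNA genes, 5 (0.0978%) were at least 1.5-fold above NC in both, against 330 of 5113 (6.45%) below the median GC content. These 5, looked up after their values were seen, were CMPK2, LHB, ZBP1, MX1 and HIST2H2AC. CMPK2, MX1 and ZBP1 belong to the interferon-induced lists. LHB, the beta subunit of luteinizing hormone, was at 0.861, 2.26 and 3.72 FPKM. HIST2H2AC, a replication-dependent histone gene with near-identical copies, was at 3.48, 6.57 and 7.94 FPKM.

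On the lower side, 6 mRNA genes were at least 1.5-fold below NC in both libraries. After ALDOA the largest shared difference was that of ACO1. ACO1 encodes cytosolic aconitase, which also serves as the iron-regulatory protein IRP1, and stood at 20.0 FPKM in NC against 11.85 in siALDOA 1 and 10.7 in siALDOA 2. The other 4 were at or under 10 FPKM in every library. GGT5, a gamma-glutamyltransferase, was at 3.04, 1.06 and 1.61 FPKM. APOA1, the main apolipoprotein of high-density lipoprotein, was at 2.05, 0.988 and 0.899 FPKM. C19orf77 was at 2.05, 0.509 and 0.926 FPKM, and C1orf50 was at 8.37, 5.21 and 4.97 FPKM.

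The other 23 genes above and 13 genes below NC in both at 2-fold were not of type mRNA, and 19 and 9 of them were short RNAs. The most abundant ones were looked up after their values were seen. SNORD5, a small nucleolar RNA, was listed at 0 in NC and stood at 18.3 and 5.04 FPKM in siALDOA 1 and 2. MIR3916 was at 1.80, 34.4 and 8.38 FPKM. MIR4754 was at 12.01, 4.61 and 4.13 FPKM. Short RNAs commonly lie inside longer transcripts, and strand use in the counting is not given, so their values are uncertain.

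Most interferon-induced genes were above NC in both siALDOA libraries. Of the 51 tested members of 3 lists (antiviral effectors, RNA sensors with IFIT genes, and ISG15 conjugation with IFI genes), 39 were above NC in both (20.1% of all genes tested were), 2 were below in both (22.6%), 17 were at least 1.5-fold above in both (3.4%) and 5 at least 2-fold (0.765%). The 5 were IFI44, SAMD9, IFI16, CMPK2 and PARP14. The medians of the 51 were 0.79 in siALDOA 1 and 0.73 in siALDOA 2, against -0.03 and 0.00 over all genes tested. None of the 51 passed limma, and 2, SAMD9L and ZBP1, were under 1 FPKM in NC. Interferon results of these data were known when the lists were chosen, so their direction is no independent evidence.

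Promoters are shown for 4 of these genes, each of which holds a motif that is the core of the interferon-stimulated response element. The letters of the motif were not used to choose the lists. Interferon acts through this element, so a high share of matches comes with choosing interferon-induced genes. Each runs from 250 bases before to 50 bases after the RefSeq gene start (GRCh38.p14), 5′ to 3′ on the strand of the gene, and capitals mark GAAANNGAAA or its reverse complement TTTCNNTTTC, where N is any base. ISG15 lies at chr1:1013247-1013546 on the plus strand, IFI6 at chr1:27672143-27672442 on the minus strand, IFIT1 at chr10:89392373-89392672 on the plus strand and IFI44 at chr1:78649539-78649838 on the plus strand.
ISG15: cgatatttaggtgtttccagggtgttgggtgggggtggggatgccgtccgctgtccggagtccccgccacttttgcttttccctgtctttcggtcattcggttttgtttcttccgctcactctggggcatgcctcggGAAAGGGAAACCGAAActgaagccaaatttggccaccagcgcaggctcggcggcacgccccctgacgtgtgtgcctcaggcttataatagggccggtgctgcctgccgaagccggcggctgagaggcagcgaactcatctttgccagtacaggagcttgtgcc
IFI6: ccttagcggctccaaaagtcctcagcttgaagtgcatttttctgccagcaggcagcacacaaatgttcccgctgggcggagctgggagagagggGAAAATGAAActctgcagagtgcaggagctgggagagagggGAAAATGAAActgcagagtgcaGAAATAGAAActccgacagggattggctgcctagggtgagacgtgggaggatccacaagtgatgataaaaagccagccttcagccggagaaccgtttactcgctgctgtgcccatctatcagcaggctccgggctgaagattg
IFIT1: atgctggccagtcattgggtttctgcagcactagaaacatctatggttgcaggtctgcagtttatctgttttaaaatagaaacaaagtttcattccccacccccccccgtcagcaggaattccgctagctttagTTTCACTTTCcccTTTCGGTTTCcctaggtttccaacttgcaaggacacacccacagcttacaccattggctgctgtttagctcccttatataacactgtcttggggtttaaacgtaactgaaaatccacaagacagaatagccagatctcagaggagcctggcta
IFI44: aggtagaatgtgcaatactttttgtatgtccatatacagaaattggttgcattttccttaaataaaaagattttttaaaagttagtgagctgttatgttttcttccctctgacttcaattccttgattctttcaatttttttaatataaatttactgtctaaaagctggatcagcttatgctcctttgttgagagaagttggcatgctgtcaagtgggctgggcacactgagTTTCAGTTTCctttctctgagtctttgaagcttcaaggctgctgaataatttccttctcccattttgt

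The ISG15 promoter holds 2 overlapping matches, beginning 113 and 107 bases before the start. IFI6 holds 3, IFIT1 holds 2 on the opposite strand and IFI44 holds 1. Of the 51 interferon-induced genes 39 matched a RefSeq promoter by symbol, and 22 of these (56.4%) held the motif. Of all 27305 promoters of the same length 996 did (3.65%), and of the 8778 promoters of tested mRNA genes 246 did (2.80%). The other mRNA genes at least 2-fold above NC in both include DDX60, an interferon-induced gene outside the lists. Among these other genes, 54 had a promoter and 1 of the 54 (1.85%) held the motif. Of the 22 genes with a match 18 were above NC in both libraries, with median differences of 1.11 and 0.77. Of the 17 without one, 11 were above NC in both, with medians of 0.79 and 0.65. OAS1 and CMPK2 were among those without a match in this window, and MX1 held 1 match, 11 bases after the start. A match is a description of the letters and not a bound site, and the share in the lists says nothing on the effect of siALDOA.

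Among the 21 tested antiviral effectors, 17 were above NC in both libraries and 0 below in both, with medians of 0.77 and 0.69. IFITM1, which blocks viral entry at membranes, stood at 1008 FPKM in NC against 1463 in siALDOA 1 and 2311 in siALDOA 2. MX1, a GTPase that traps viral nucleocapsids, was at 40.9, 70.7 and 93.4 FPKM. OAS1, which makes the 2-5A activator of RNase L, was at 53.1, 82.6 and 115 FPKM. For these 3 genes siALDOA 2 was highest, siALDOA 1 lay between and NC was lowest. OAS2 was at 46.9, 89.6 and 71.3 FPKM and OAS3 at 75.5, 108 and 131 FPKM. MX2 was at 12.2, 22.3 and 22.5 FPKM. The members not above NC in siALDOA 2 were TRIM5, EIF2AK2, ZC3HAV1 and GBP1. EIF2AK2, the RNA-activated kinase PKR with a GC content of 38.7%, was at 8.90, 27.8 and 7.01 FPKM. The IFITM genes are near-identical copies, and their split is uncertain.

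Among the 12 tested RNA sensors and IFIT genes, 8 were above and 2 below NC in both, with medians of 1.44 and 0.79. IFIT1, which binds viral RNA caps that lack methylation, stood at 14.5 FPKM in NC against 74.0 in siALDOA 1 and 29.2 in siALDOA 2. IFIT2 was at 2.46, 22.4 and 5.26 FPKM, and IFIT3 was at 19.1, 110 and 25.9 FPKM. The IFIT genes have a GC content of 37.4% to 44.3%, and their siALDOA 1 values were the highest. DDX58, the RNA sensor RIG-I, was at 2.46, 29.9 and 5.67 FPKM. IFIH1, the sensor MDA5, was at 1.45, 15.4 and 3.08 FPKM. DHX58, their regulator LGP2, with a GC content of 58.2%, was at 8.82, 12.98 and 19.1 FPKM. ZBP1, a sensor of left-handed nucleic acids, was at 0.465, 1.54 and 1.67 FPKM. MAVS, the adaptor below RIG-I and MDA5, was at 8.52, 7.30 and 7.84 FPKM, below NC in both. TRIM25, the other gene below NC in both, was at 60.1, 56.5 and 60.0 FPKM.

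Among the 18 tested genes of ISG15 conjugation and the IFI group, 14 were above and 0 below NC in both, with medians of 0.70 and 0.74. ISG15, the ubiquitin-like modifier, stood at 1234 FPKM in NC against 1704 in siALDOA 1 and 2778 in siALDOA 2. UBE2L6, its conjugating enzyme, was at 56.1, 82.5 and 132 FPKM, and UBA7, its activating enzyme, at 12.4, 13.4 and 18.5 FPKM. HERC5, its ligase, was highest in siALDOA 1, at 0.288, 1.89 and 0.403 FPKM, and stayed under the filter. HERC6, a relative of HERC5, was at 16.3, 36.1 and 15.4 FPKM. USP18, which removes ISG15, was at 38.3, 48.9 and 63.9 FPKM. IFI6, a small membrane protein, was at 745, 1108 and 1820 FPKM. CMPK2, a mitochondrial nucleotide kinase, was at 10.75, 23.9 and 25.4 FPKM. PARP14 was at 1.56, 28.7 and 4.21 FPKM, while PARP9 and DTX3L, which form a complex, were above NC in siALDOA 1 only, at 13.2, 33.9 and 11.5 FPKM and 11.2, 35.0 and 8.03 FPKM.

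**Figure D4:**
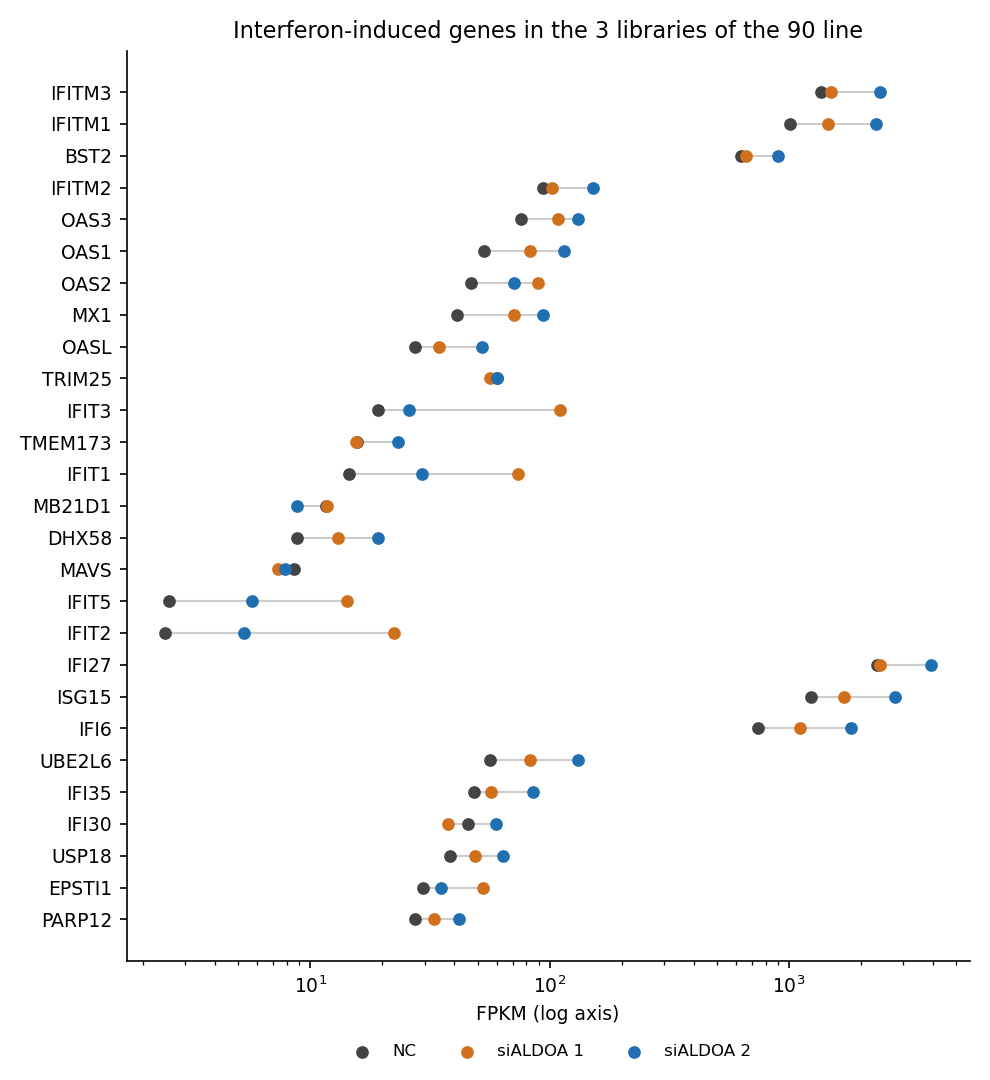
FPKM (log axis) of the 9 genes with the highest NC level in each of the 3 interferon-induced lists, in list order, with NC in grey, siALDOA 1 in orange and siALDOA 2 in blue. ISG15, IFI6, IFITM1, OAS1 and MX1 are lowest in NC and highest in siALDOA 2, the IFIT genes are highest in siALDOA 1, and MAVS and TRIM25 are highest in NC.

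The order of the siALDOA libraries among the interferon-induced genes was that of most mRNA genes of the same GC range. In the 23 members at or above the median GC content, the siALDOA 2 difference was the larger in 23 of 23, as it was in 4468 of all 5115 mRNA genes in that range, and the medians were 0.33 in siALDOA 1 and 0.79 in siALDOA 2. Of these 23 genes 19 were above NC in both, against 460 of the 5115, whose medians were -0.23 and 0.07. In the 27 members below it, siALDOA 2 was the larger in 2, against 721 of 5113 mRNA genes, and the medians were 1.79 and 0.59. Of these 27 genes 20 were above NC in both, against 1501 of the 5113, whose medians were 0.51 and -0.14. With the GC trend removed, 46 of 50 members were above NC in both and 26 at least 1.5-fold, and the medians were 0.74 and 0.74. Of the 10228 mRNA genes with a GC value, 328 (3.21%) were at least 1.5-fold above NC in both on that scale.

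The genes upstream of this response were mostly near NC. Of 21 tested interferon, receptor, STAT and IRF genes, 6 were above (20.1% of all genes tested) and 2 below NC in both (22.6%). The medians were 0.01 and 0.15. The first of these turned to -0.17 with libraries scaled by the median ratio and to -0.09 with quantile normalization. IRF7, the interferon-induced regulator of interferon genes, stood at 18.0 FPKM in NC against 24.5 in siALDOA 1 and 38.0 in siALDOA 2. STAT2 was at 8.19, 10.9 and 12.2 FPKM. Both were above NC in both siALDOA libraries. IRF9, the DNA-binding partner of STAT2, was at 109, 95.3 and 124.8 FPKM, on either side of NC. The interferon genes were scarce, with IFNB1 at 0.134, 0.244 and 0.188 FPKM and IFNL1 at 0.132, 0.599 and 1.29 FPKM, both under the filter. IFNE was at 0.153, 3.65 and 0.499 FPKM and passed through siALDOA 1.

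Genes of MHC class I antigen presentation, many of them interferon-responsive, were higher mainly in siALDOA 2. Of 17 tested, 10 were above NC in both (20.1% of all genes tested) and 0 below in both (22.6%). The medians were 0.07 and 0.51. The siALDOA 1 median turned to -0.14 with median ratio scaling. HLA-B stood at 274 FPKM in NC against 306 in siALDOA 1 and 517 in siALDOA 2. HLA-C was at 260.4, 274 and 463 FPKM. TAP1, the peptide transporter subunit, was at 57.8, 64.5 and 90.0 FPKM. NLRC5, the transactivator of class I genes, was at 5.31, 5.87 and 9.14 FPKM. B2M, the shared light chain, with a GC content of 40.6%, was at 1778, 2430 and 2074 FPKM. The HLA genes are similar copies, so reads may be split between them. Of 9 tested chemokines 5 were above NC in both, where 20.1% of all genes tested lay. Among them were CCL5 at 3.99, 4.93 and 8.97 FPKM and CCL20 at 19.2, 50.02 and 26.7 FPKM. CXCL10, an interferon-induced chemokine, stayed under the filter at 0.185, 0.338 and 0.0864 FPKM.

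Of 13 mitochondrially encoded mRNAs, 11 were below NC in both libraries (22.6% of all genes tested were), with medians of -0.23 and -0.20. ATP6, an ATP synthase subunit, was at 4804, 3680 and 3677 FPKM. ND6, the complex I subunit from the light strand, was at 1852, 1361 and 1379 FPKM. The siALDOA 1 median was 0.00 with quantile normalization. The 28 nuclear genes of oxidative phosphorylation had 2 members above NC in both (20.1% of all genes tested) and 14 below (22.6%). Their medians were -0.27 and -0.01.

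Of 12 tested serine, glycine and one-carbon genes 7 were below NC in both (22.6% of all genes tested) and 1 above (20.1%). The medians were -0.17 and -0.18. PHGDH, the first enzyme of serine synthesis from 3-phosphoglycerate, was at 142, 104 and 126 FPKM. SHMT2, which splits serine in mitochondria, was at 143, 106 and 131 FPKM. MTHFD2, which acts next on the one-carbon unit, was at 65.4, 61.5 and 35.2 FPKM. Of 34 ribosomal protein genes, 0 were above (20.1%) and 16 below NC in both (22.6%), with medians of -0.35 and -0.01. Of 25 genes of cholesterol synthesis and uptake, 4 were above (20.1%) and 0 below in both (22.6%), with medians of -0.05 and 0.26.

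**Figure D5:**
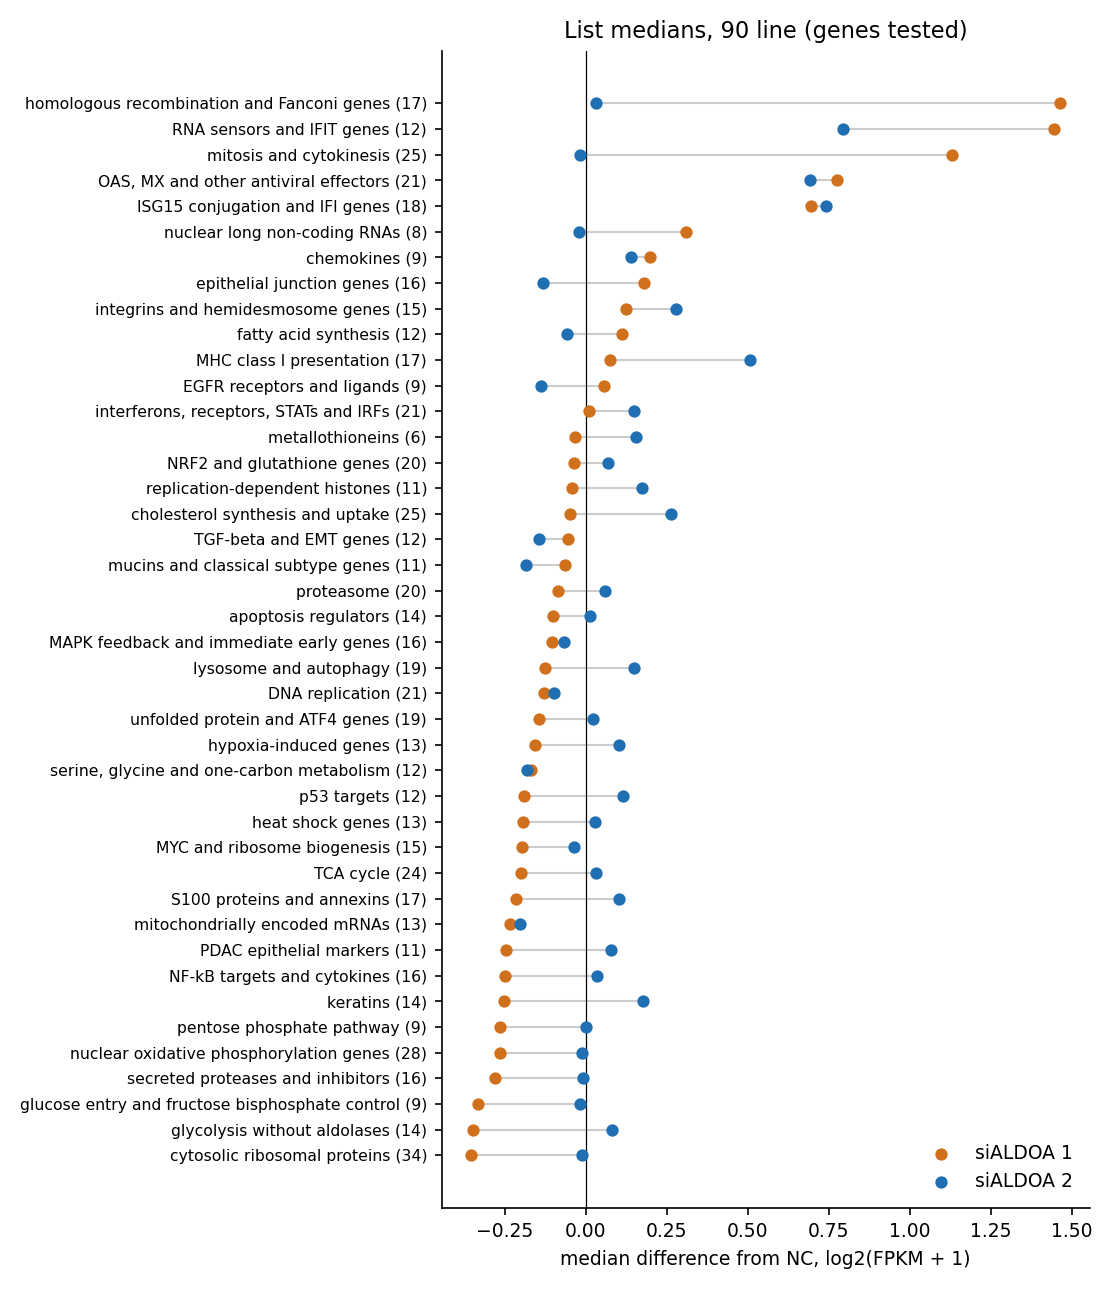
Median difference from NC in log2(FPKM + 1) for the gene lists with at least 5 tested members (number in brackets), in siALDOA 1 (orange) and siALDOA 2 (blue), ordered by siALDOA 1. The 3 interferon-induced lists have both medians at or above 0.69, whereas the mitosis and the homologous recombination lists are high in siALDOA 1 alone, at 1.13 and 1.46.

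Of 25 tested genes of mitosis and cytokinesis, 10 were above (20.1% of all genes tested) and 9 below NC in both (22.6%). The medians were 1.13 and -0.02. This list had a median GC content of 42.6%, under the 49.45% of tested mRNA genes, where 1501 of 5113 mRNA genes lay above NC in both. TOP2A, which untangles chromosomes, with a GC content of 39.1%, stood at 3.98 FPKM in NC against 86.2 in siALDOA 1 and 11.3 in siALDOA 2. TTK, a spindle checkpoint kinase, was at 1.72, 14.2 and 5.26 FPKM. UBE2C, which serves the anaphase-promoting complex, with a GC content of 50%, was at 244, 197 and 200 FPKM. PLK1, a mitotic kinase with a GC content of 57.1%, was at 90.0, 70.0 and 88.9 FPKM. MKI67, a proliferation marker with a GC content of 48.3%, was at 4.99, 20.95 and 3.11 FPKM. Of 17 genes of homologous recombination and the Fanconi pathway, 8 were above (20.1%) and 2 below NC in both (22.6%). The medians were 1.46 and 0.03, and 8 of the 17 genes were under 1 FPKM in NC. Their median GC content was 41.2%, in the same low range.

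Differences of 1 library alone were mostly those of siALDOA 1. Beside the genes shared at 2-fold, there were 1652 mRNA genes at least 2-fold higher in siALDOA 1 than in both other libraries and 0 at least 2-fold lower than in both. The higher ones had a median GC content of 39.4% and a median transcript length of 4918 bases, against 49.45% and 3547 over all tested mRNA genes. ITGA2, a collagen receptor subunit, stood at 3.61 FPKM in NC against 48.2 in siALDOA 1 and 3.67 in siALDOA 2. CENPF, a kinetochore protein, was at 0.383, 13.8 and 1.32 FPKM. XAF1, an interferon-induced apoptosis gene, was at 1.24, 20.6 and 2.52 FPKM. IQGAP1, an actin scaffold, was at 8.94, 63.8 and 9.66 FPKM. PNN, TPR, SCAF11 and DDX46, genes of RNA processing and the nuclear pore, complete the 8 largest. They stood at 3.76, 0.562, 0.759 and 1.28 FPKM in NC and at 44.5, 18.0, 16.9 and 17.6 FPKM in siALDOA 1. In siALDOA 2 they were at 6.21, 2.01, 1.85 and 2.05 FPKM, above NC by less than 2-fold. With the GC trend removed, TPR was at least 2-fold above NC in both libraries, with differences of 2.64 and 1.03. On the lower side of siALDOA 1, HMOX1, the stress-induced heme oxygenase, was at 11.3, 6.87 and 13.6 FPKM, and SOCS1, an inhibitor of JAK kinases, was at 2.13, 0.970 and 2.07 FPKM.

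In siALDOA 2 alone, again beside the shared genes, 2 mRNA genes were at least 2-fold higher than in both other libraries and 54 at least 2-fold lower. The higher ones were TRBJ2-3, a T cell receptor joining segment listed at 0 in NC and siALDOA 1 and at 4.29 FPKM in siALDOA 2, and HIST1H2AJ, a histone gene at 0.256, 0.584 and 2.39 FPKM. The lower genes had a median GC content of 43.8% and a median length of 4754 bases. The siALDOA 2 median was lowest, at -0.28, in the GC group from 42.8% to 46.0%. In that group 35 genes of any type were at least 2-fold below NC in siALDOA 2, the most of any group. SUPT16H, a subunit of the histone chaperone FACT, was at 32.5, 54.5 and 10.3 FPKM. PSMD1, a proteasome subunit, was at 35.3, 41.3 and 12.5 FPKM. AHNAK, a giant scaffold protein, was at 32.3, 47.9 and 11.7 FPKM. In siALDOA 1 these 3 genes were above NC, the opposite side. CNOT1, the scaffold of the deadenylase complex, was at 16.3, 26.8 and 6.04 FPKM.

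The third comparison asked whether any gene passed a test over the libraries. In limma on all 6 libraries, 0 of 12154 genes (0%) passed an adjusted p under 0.05 for siALDOA against NC in the 90 line, and 38 had an unadjusted p under 0.05. That fit takes its spread from the siALDOA pairs of both lines and assumes that the lone NC library varies like them. The difference between the siALDOA effect in the 90 line and that in PANC-1 was also called for 0 genes (0%), with 23 at an unadjusted p under 0.05, so none of the differences above is shown to be particular to the 90 line. Of the 6 smallest p-values per direction, ALDOA was the single mRNA gene. MIR939, first among genes above NC by p-value, was listed at 0 in NC and stood at 4.38 and 3.20 FPKM in the siALDOA libraries. ISG15 had a log2 change of 0.82 (SE 0.435), MX1 of 0.97 (SE 0.370) and CMPK2 of 1.12 (SE 0.325), each with a limma adjusted p of 1.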

How the data were processed

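The authors deposited 1 table of FPKM values, with genes in rows and libraries in columns. HISAT2, featureCounts and the build hg38 are named in the submitters' processing notes, while their versions, strand use and the gene lengths are not given there or in the labels. Of 41769 rows, 1 without a gene name was left out, and 0 columns of values were unused. In 28 rows the symbol had become a date, and these rows are not named.

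Values were compared as log2(FPKM + 1) for genes whose mean FPKM in the 3 libraries of the 90 line reached 1. Of these, 963 passed with NC under 1 FPKM and 28 with both siALDOA libraries under 1. Just inside the filter lay ZNF880 (mean 1.0004 FPKM) and just outside it APOBEC3F (mean 0.998). The fold threshold was 2 in both siALDOA libraries. Tests across genes used limma 3.58.1 (R 4.3.3) on means of the 4 groups of all 6 libraries, with an intensity trend, 2 residual degrees of freedom and Benjamini-Hochberg adjustment, two-sided. Gene lists (47) were described by counts and medians. The members and lists were chosen with earlier results of these data known.

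GC content and length are those of the longest GENCODE v29 transcript of a symbol, found for 90.9% of tested genes. The GC trend was removed by a lowess fit (fraction 0.3, statsmodels 0.14.6). Depth came from miRNA, snoRNA and snRNA values, of which 97.2% to 97.4% were whole multiples of a step in these 3 libraries (multiples up to 8, tolerance 0.03). Gene lengths are not in the table, so no count test was run, and intervals for counting error are not given. Promoters are from RefSeq.

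Named genes were the aldolases, up to 15 mRNA genes per direction by the smaller of both differences among those at least 2-fold from NC, up to 8 per direction for 1 library alone, up to 6 members per list and those that define it, ISG15, IFIT1, MX1, OAS1, IRF7 and IRF9, and the 6 smallest p-values per direction. A few genes covered by this rule are not reported here. Alternatives were other pseudocounts, filters, folds, scalings, GC correction, and leaving out a siALDOA library.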

Additional observations from a re-analysis of the deposited data

How the results depend on the processing

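No paired analysis was possible because each line has a single NC library. Limma called 0 genes for siALDOA against NC and 0 for the difference between the lines in each planned setting. In genes at or above the median GC content, a set chosen after seeing the data, it called 37 and 27, with 4 and 2 of type mRNA. The prior degrees of freedom of that fit were infinite, against 2.12 in the main fit. Its spread thus came from the intensity trend alone and not from the values of each gene, so these calls are not comparable with the planned settings. The log2 change of ALDOA ran from -1.17 to -1.47 and was never called. The 16 named shared genes kept their side of NC in 145 of 145 values over 10 alternatives, 136 of them at least 2-fold. They were chosen for large differences in these same values, so keeping a side is no independent support. The 15 higher genes all lie below the median GC content, so the high-GC setting holds none of them.

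The 93 shared higher genes became 413 at 1.5-fold, 11 at 3-fold, 417 with a pseudocount of 0.1, 8 with a pseudocount of 5, 144 with median ratio scaling, 224 as TPM and 9 among high-GC genes. With 1 siALDOA library left out they numbered 122 to 1974. The 14 shared lower genes became 44 at 1.5-fold, 5 at 3-fold, 28 and 1 with pseudocounts of 0.1 and 5, 2 at a mean of at least 5 FPKM, 42 with no filter, 26 with quantile normalization, 35 as TPM and 1 for mRNA alone, and 38 to 105 with 1 library left out.

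The interferon-induced median of siALDOA 1 (0.79) became 0.84 and 0.59 with pseudocounts of 0.1 and 5, 0.73 at a mean of at least 5 FPKM, 0.60 with median ratio scaling, 0.95 as TPM, 0.74 with the GC trend removed and 0.33 in high-GC genes. That of siALDOA 2 (0.73) became 0.79 and 0.50 with those pseudocounts, 0.82 with median ratio scaling and 0.79 in high-GC genes. The median of the lowest GC group in siALDOA 1 went from 1.48 to 0.048 with the GC trend removed. The median of all genes in siALDOA 1 moved by -0.18 with median ratio scaling, -0.19 with quantile normalization and 0.13 as TPM. Apart from the GC correction, which removes the trend by construction, the cause of these shifts was not tested.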

Other observations

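Further interferon-responsive genes outside the 3 lists, chosen after their values were seen, had the same order of libraries as ISG15. LGALS9, the galectin that binds glycans on immune cells, stood at 17.9 FPKM in NC against 24.7 in siALDOA 1 and 41.1 in siALDOA 2. TYMP, thymidine phosphorylase, was at 138, 174 and 281 FPKM. The complement genes CFB, C1R and C1S were at 7.63, 11.5 and 15.5 FPKM, at 3.87, 5.94 and 9.66 FPKM, and at 0.440, 1.08 and 1.55 FPKM. LY6E, a membrane-anchored restriction factor, was at 739, 758 and 1175 FPKM. None of these genes passed limma (adjusted p = 1 for each).

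Classical PDAC subtype genes and mesenchymal genes lay near NC. Of 11 tested mucin and classical subtype genes, 0 were above NC in both libraries (20.1% of all genes tested) and 5 were below in both (22.6%). MUC5AC, a gel-forming mucin, was at 3.85, 2.84 and 2.80 FPKM, and GATA6, a regulator of the classical subtype, at 7.54, 7.17 and 6.87 FPKM. Of 12 tested TGF-beta and mesenchymal genes, 0 were above (20.1%) and 3 below in both (22.6%). VIM, the gene of vimentin, was at 728, 593 and 802 FPKM. Among 16 NF-kB targets and cytokines, 3 were above (20.1%) and 6 below in both (22.6%). IL1B was at 174, 137 and 136 FPKM and IL1A at 13.6, 72.1 and 22.7 FPKM.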
